A study of Mus musculus with 26 samples.

Results

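EZH2 CUT&RUN was compared between wild-type (WT) mouse embryonic fibroblasts (MEFs) and ATRXΔRBR MEFs, in which the RNA binding region (RBR) of the endogenous ATRX protein had been deleted with CRISPR. The 4 EZH2 peak lists, 2 of WT and 2 of ATRXΔRBR, held 74493 of the 272147 peaks in the 16 peak lists of the series. A peak was called consistently lost when a peak of WT replicate 1 overlapped WT replicate 2 by 1 bp or more and overlapped neither ATRXΔRBR list, and consistently gained in the reverse case. By this rule 1591 of the 15596 peaks shared by both WT lists were lost, or 10.2%, and 18 of the 9458 peaks shared by both ATRXΔRBR lists were gained, or 0.19%. With every list cut to its 11408 strongest peaks, which is the length of the shortest list, 472 of 8388 shared WT peaks were lost and 425 of 7477 shared ATRXΔRBR peaks were gained. Losses and gains were therefore nearly equal in number when the lists were equally long.

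The study asked how the RNA contacts of ATRX affect where it and the Polycomb machinery sit on chromatin. Both groups were female MEFs grown in serum without treatment, and the deletion cells were selected with puromycin and picked as colonies, which the study describes as a clone. A clone can differ from its parental cells in ways other than the deletion, and in these data the clone and the deletion cannot be told apart. The libraries are described as biological replicates, without saying whether those of a group were separate cultures or separate clones, so any p-value measures only the spread between these libraries, which may be technical. The WT and ATRXΔRBR libraries of EZH2, H3K27me3, ATRX and RNA carry a single sequencing run name in the authors' list of raw files.

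CUT&RUN uses an antibody to guide a nuclease to a chromatin protein, and the released fragments are sequenced. EZH2 is the catalytic subunit of Polycomb repressive complex 2 (PRC2), which places methyl groups on lysine 27 of histone H3. The trimethyl form, H3K27me3, marks silent developmental genes, many of which have CpG islands at their promoters. ATRX is a SWI/SNF-family chromatin remodeler that works with DAXX to deposit histone H3.3 at repeats and heterochromatin, and it also binds RNA and PRC2.

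The genomic sequence under lost peaks ranged from CpG-rich promoters to CpG-poor introns, and 200 bp stretches from peaks of each kind are shown (mm10, GRCm38.p6 plus strand, outside all annotated exons, CG dinucleotides in capitals). The first 5 were lost promoter peaks at genes named below, and the next pair were the strongest lost peak within 2 kb of a protein-coding start and the strongest lost peak anywhere. A gained and a retained peak follow for contrast.
Cttnbp2, before the start, chr6:18514844-18515043: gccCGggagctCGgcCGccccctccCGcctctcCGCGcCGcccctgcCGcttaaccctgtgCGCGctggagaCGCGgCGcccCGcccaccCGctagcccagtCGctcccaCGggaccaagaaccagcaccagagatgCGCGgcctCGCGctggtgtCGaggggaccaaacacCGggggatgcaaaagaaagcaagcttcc
Chn2, before the start, chr6:54039353-54039552: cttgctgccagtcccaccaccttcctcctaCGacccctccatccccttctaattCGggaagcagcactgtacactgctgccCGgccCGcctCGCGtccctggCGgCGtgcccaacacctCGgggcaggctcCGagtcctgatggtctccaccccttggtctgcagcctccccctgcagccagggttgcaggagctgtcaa
Ppp1r9a, intron, chr6:4903555-4903754: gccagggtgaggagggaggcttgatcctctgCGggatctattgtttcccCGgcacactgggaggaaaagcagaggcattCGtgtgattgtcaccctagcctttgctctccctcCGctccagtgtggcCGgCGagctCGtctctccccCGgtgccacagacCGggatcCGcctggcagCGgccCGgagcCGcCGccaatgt
Tspan12, intron, chr6:21852170-21852369: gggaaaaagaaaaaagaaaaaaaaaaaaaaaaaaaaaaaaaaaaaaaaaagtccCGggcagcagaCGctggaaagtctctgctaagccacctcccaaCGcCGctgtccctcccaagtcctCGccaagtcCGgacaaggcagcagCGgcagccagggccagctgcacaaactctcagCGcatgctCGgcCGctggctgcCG
Trim68, intron, chr7:102686941-102687140: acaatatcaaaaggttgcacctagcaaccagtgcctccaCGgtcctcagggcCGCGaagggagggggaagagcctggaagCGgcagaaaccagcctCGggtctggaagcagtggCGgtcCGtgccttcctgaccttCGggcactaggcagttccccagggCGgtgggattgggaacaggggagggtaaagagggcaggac
Ttc23l, before the start, chr15:10560141-10560340: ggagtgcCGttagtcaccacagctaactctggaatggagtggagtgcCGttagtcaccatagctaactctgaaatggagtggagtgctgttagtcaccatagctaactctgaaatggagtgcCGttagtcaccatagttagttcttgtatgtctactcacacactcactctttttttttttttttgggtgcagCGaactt
Rsph3b, intron, chr17:6941824-6942023: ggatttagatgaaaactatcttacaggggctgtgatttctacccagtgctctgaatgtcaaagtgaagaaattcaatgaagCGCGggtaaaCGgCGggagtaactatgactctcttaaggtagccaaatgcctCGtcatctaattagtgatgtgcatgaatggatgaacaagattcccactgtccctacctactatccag
Mapkapk3, before the start, gained, chr9:107291000-107291199: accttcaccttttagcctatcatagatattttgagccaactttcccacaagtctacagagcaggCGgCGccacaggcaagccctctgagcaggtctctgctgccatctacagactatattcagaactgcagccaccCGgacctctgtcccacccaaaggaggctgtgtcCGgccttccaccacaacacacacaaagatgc
Col2a1, before the start, retained, chr15:98004696-98004895: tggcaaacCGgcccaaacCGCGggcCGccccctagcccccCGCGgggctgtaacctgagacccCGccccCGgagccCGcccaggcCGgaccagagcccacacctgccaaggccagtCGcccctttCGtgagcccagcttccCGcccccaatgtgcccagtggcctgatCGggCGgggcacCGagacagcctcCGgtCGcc
The stretch before Cttnbp2 held 23 CG dinucleotides and the one before Col2a1 held 18, against 4 before Ttc23l, 5 in Rsph3b and 4 before Mapkapk3. Over 200 bp at the peak midpoint, lost peaks had a median of 3 CG dinucleotides, retained peaks 15 and all peaks shared by the WT lists 12. At least 1 CG was present in 90.1% of lost, 98.0% of retained and 96.5% of all shared peaks, and at least 10 were present in 16.8%, 67.5% and 55.7%. A run of GGGG or CCCC, searched on both strands of the same windows, occurred in 71.8% of lost, 87.9% of retained and 84.5% of all shared peaks.

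The lists differed in length within a genotype as well as between genotypes. The WT lists held 22316 and 18351 peaks and the ATRXΔRBR lists 22418 and 11408, with median peak widths of 466, 466, 556 and 419 bp. Nearly all peaks of ATRXΔRBR replicate 2 lay in WT lists, 95.9% in WT replicate 1 and 97.3% in WT replicate 2. In contrast, 42.2% of the peaks of ATRXΔRBR replicate 1 overlapped ATRXΔRBR replicate 2. In lists of equal length, WT lists overlapped each other at 73.5% and 73.9% of their peaks, and ATRXΔRBR lists at 65.5% and 67.2%. Between genotypes the overlap ranged from 67.0% to 80.0%. Pairs with ATRXΔRBR replicate 1, at 67.0% to 67.1%, lay below the WT pair, and pairs with ATRXΔRBR replicate 2 ranged from 71.1% to 80.0%. The lists carry no read totals and the study gives depth only as an approximate range over all samples, so the part of depth in these lengths was not tested.

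Of the 15596 EZH2 peaks shared by the WT lists, 8958 were retained in both ATRXΔRBR lists, 3669 in replicate 1 alone and 1378 in replicate 2 alone. The number lost rose to 5260 when ATRXΔRBR replicate 1 was left out and to 2969 when ATRXΔRBR replicate 2 was left out. Gains depended on a single library, since 6306 peaks of ATRXΔRBR replicate 1 were in neither WT list and 62 of ATRXΔRBR replicate 2 were. Requiring a q-value of 0.01 in the lists that hold the peak and absence from the whole of the other lists left 651 losses and 4 gains, an alternative chosen after seeing the data.

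**Figure D1:**
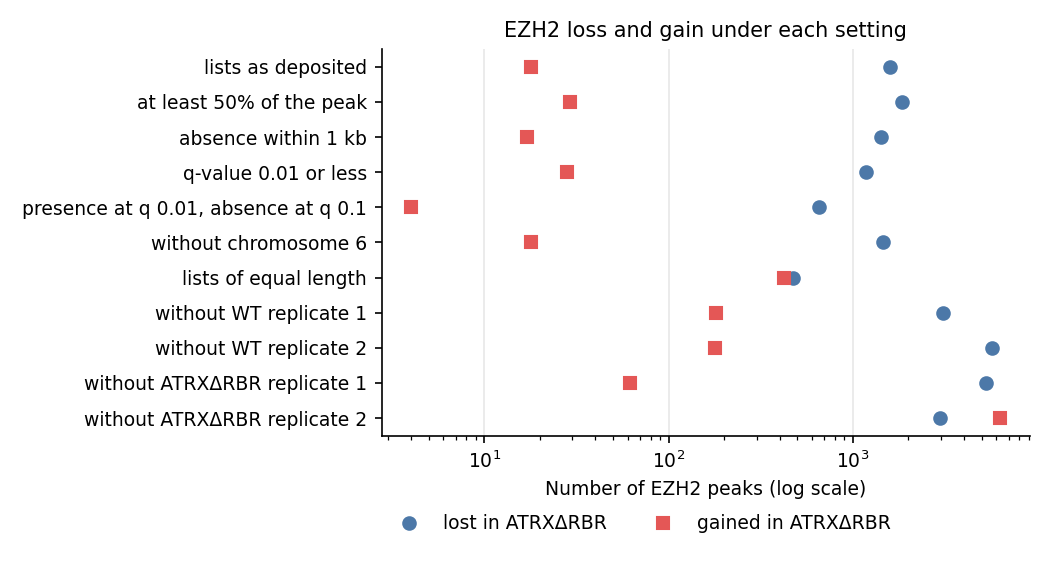
Number of EZH2 peaks consistently lost (circles) and gained (squares) in ATRXΔRBR on a log axis, under the rule applied to the lists as deposited and under 10 alternatives. Losses outnumber gains in all of them but the one without ATRXΔRBR replicate 2, with 2969 and 6306, and the counts are closest in lists of equal length, with 472 and 425.

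Lost peaks were weak, narrow and mostly away from transcription start sites (TSSs). With shared peaks split into 5 equal groups by −log10 q, the share lost was 25.8% in the weakest group, then 12.9%, 7.63% and 3.46%, and 1.28% in the strongest. It was 28.7% for peaks up to 300 bp wide and 0.945% for peaks over 2000 bp. Median width was 302 bp for lost peaks and 767 bp for retained peaks, and median −log10 q was 2.66 and 5.42. Within 2 kb of a TSS 4.50% of shared peaks were lost, against 653 of 3445 in gene bodies and 20.9% between genes. The order by place was also seen among peaks of like strength: in the weakest group 16.4% of TSS peaks, 32.8% of gene body peaks and 35.3% of intergenic peaks were lost. Lost peaks between genes numbered 499 and those at TSSs 439. Of the lost gene body peaks, 118 touched an exon, or 18.1%, compared with 46.9% of the retained ones. These features belong to the lists that defined the classes and are given as a description.

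**Figure D2:**
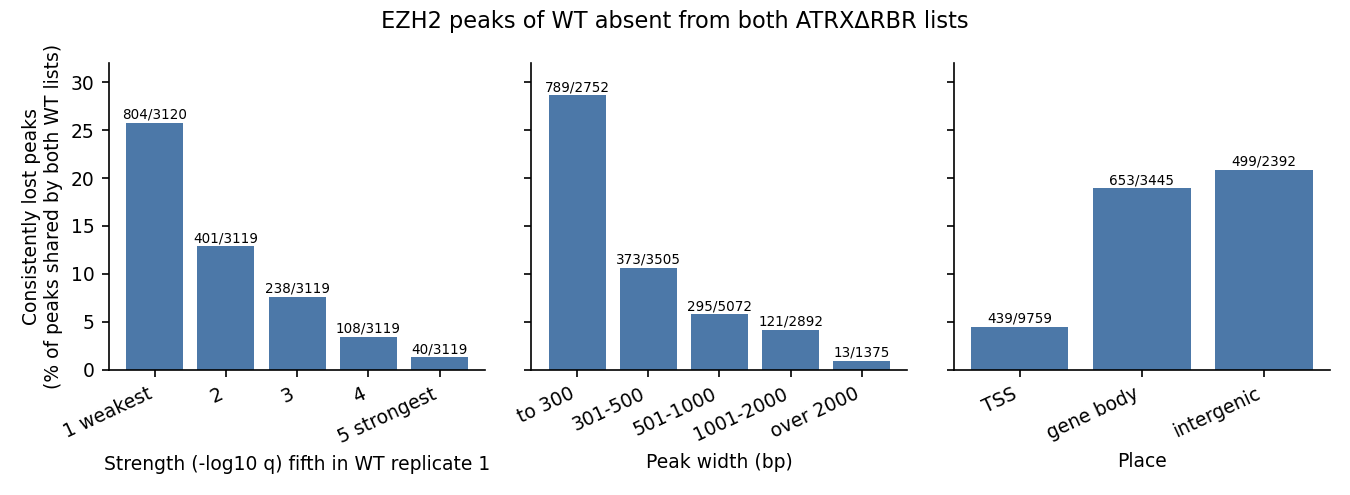
Share of the EZH2 peaks common to both WT lists that was absent from both ATRXΔRBR lists, by 5 equal groups of −log10 q in WT replicate 1, by peak width in bp and by place, with lost and total peaks above each bar. The share falls from 25.8% to 1.28% with strength and from 28.7% to 0.945% with width, and is lowest at the TSS, at 4.50%.

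Lost peaks were poorer in G and C than retained peaks. Mean GC content was 51.3% ± 8.49 (SD over 1591 lost peaks) against 59.8% ± 8.27 (SD over 8958 retained peaks), and the median ratio of observed to expected CpG was 0.291 against 0.770. At TSSs the means were 56.8% and 62.2%, and outside TSSs 49.2% and 53.2%, so the direction held in both places. Repeat sequence covered 9.78% of lost and 7.29% of retained peaks on average.

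Several of the strongest lost peaks lay in introns. The strongest by the smaller of its −log10 q values, 19.8 and 8.47, was 266 bp wide (chr17:6941791-6942056) in Rsph3b, a radial spoke gene. The stretch shown from it resembles 28S ribosomal RNA, which is encoded in many copies, so read placement there is uncertain. The intronic peak in Tet1, which encodes an enzyme that oxidizes 5-methylcytosine, had −log10 q values of 9.68 and 5.81 (chr10:62851110-62851333). In Ccnd3, a D-type cyclin gene, the values were 6.39 and 5.34. These peaks, chosen as the strongest after their values were seen, had no counterpart in either ATRXΔRBR list.

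Of the 5 widest lost peaks, 4 lay in or near Pax3, Tshz3, Rax and Dchs2. The widest, 2830 bp, lay in the body of Pax3, a transcription factor gene of neural crest and muscle precursors (chr1:78181568-78184397), and had −log10 q values of 2.36 and 1.42. A 2586 bp peak lay at the TSS of Tshz3, a zinc finger homeobox gene, a 2567 bp peak near the TSS of Rax, a retinal homeobox gene, and a 2530 bp peak at the TSS of Dchs2, a large cadherin gene. The remaining one, 2778 bp, lay 21808 bp from the nearest protein-coding start, that of Gm5800. H3K27me3 peaks overlapped the Pax3 and Dchs2 peaks in both WT lists and in neither ATRXΔRBR list, overlapped the Rax peak in all 4, and did not overlap the Tshz3 peak in any.

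At protein-coding promoters, taken as 2 kb on each side of the outermost TSS, EZH2 was present in both WT lists at 9842 of 21938 genes and was lost at 262, or 2.66%. At 7002 genes it was present in all 4 lists. No promoter was gained by the rule, against 7114 promoters with EZH2 in both ATRXΔRBR lists, so that the share gained was 0.0%. With lists of equal length the counts were 99 lost and 289 gained, and 19 of the 99 were among the 262. The promoters that lost EZH2 thus depended on the length of the lists.

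The strongest promoter peaks among the losses were those of Ttc23l, Cttnbp2, Chn2, Grp, Ppp1r9a, Tspan12, Ly6h, Trim68, Apba3 and Ubd. Cttnbp2, which encodes a cortactin-binding protein of neurons, had a 2006 bp peak over its TSS (chr6:18513868-18515873) with −log10 q of 6.31 and 4.69 in the WT lists. Chn2, the gene of the Rac-inactivating protein beta-chimaerin, had a 1864 bp peak over its TSS (chr6:54038521-54040384) with 6.42 and 4.68. Tspan12, a tetraspanin gene of Norrin and Frizzled signaling, had a 1690 bp peak (chr6:21851306-21852995) with 5.61 and 3.44. All 3 lie on chromosome 6, and each had H3K27me3 in both WT lists and in neither ATRXΔRBR list. At Ly6h another EZH2 peak remained in ATRXΔRBR replicate 2 within the promoter, with −log10 q of 2.19, and at Apba3 another remained in ATRXΔRBR replicate 1, with 6.47. A lost peak is therefore not in every case a promoter without EZH2.

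Over all protein-coding promoters with EZH2 in both WT lists, 71.1% were retained in both ATRXΔRBR lists. Retention needed an overlap of only 1 bp with the promoter window, so a narrower peak also counts as retained. Of 30 Hox promoters with EZH2 in both WT lists none was lost and 26 were retained, and of 22 Wnt and Frizzled promoters none was lost and 18 were retained. Of 113 promoters of developmental transcription factors 76 were retained, or 67.3%, and 3 were lost, or 2.65% against 2.66% of all protein-coding promoters. Foxp2, a forkhead transcription factor gene, and Neurod1, a neuronal differentiation factor gene, were among them, and both had H3K27me3 in both WT lists and in neither ATRXΔRBR list. Foxp2 had 2 and 1 estimated counts in WT and 0 and 1 in ATRXΔRBR. Neurod1 was listed at 0 TPM in all 4 libraries.

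The shares below stand beside the 2.66% lost of all protein-coding promoters with EZH2 in both WT lists. Among other lists of genes, none of 9 PRC2 subunit promoters, 50 promoters of cytosolic ribosomal protein genes, 11 promoters of imprinted genes and 4 promoters of the senescence axis was lost. Of 17 PRC1 subunit promoters, 1 was lost, that of Phc2. Phc2 RNA was 113 and 81.2 TPM in WT and 73.1 and 87.0 TPM in ATRXΔRBR, so that the groups overlapped. Of 62 histone gene promoters 1 was lost, that of Hist3h2ba, and of 5 clustered protocadherin promoters 1 was lost, that of Pcdhac2. Of 207 zinc finger (Zfp) promoters 8 were lost, or 3.86%, led by Zfp536, Zfp84, Zfp870 and Zfp800. On chromosome X 11 of 207 promoters were lost, or 5.31%. Counted by peaks, 24 of 265 shared peaks of chromosome X were lost, or 9.06%, against 10.2% of all shared peaks. The lost promoters were led by the neighbors Ubl4a and Slc10a3, both with −log10 q of 7.11 and 2.28, and by Ptchd1 and Gm15155, both with 2.92 and 2.05. Neighboring promoter windows can hold the same peak, so these promoters are not all separate losses. In RNA, 5.03% of all tested protein-coding genes were called lower and 3.35% higher. Of 336 Zfp genes 5.95% were lower and 2.68% higher, close to those shares. Of 81 genes of developmental transcription factors 13.6% were lower and 1.23% higher, with a median log2 fold change of 0.09, and of 398 genes of chromosome X 11.1% were lower and 2.26% higher. Of 73 ribosomal protein genes 2 were lower, of 17 Wnt and Frizzled genes 3 were lower and 1 higher, of 17 imprinted genes 2 were lower and 2 higher, and of 33 protocadherins 1 was lower and 2 higher. Of 18 Hox, 13 PRC2, 20 PRC1 and 5 senescence genes 1 each was higher.

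Some lost promoters belonged to genes of neuronal receptors, ion channels and transporters. A list of such families by symbol held 97 promoters with EZH2 in both WT lists, of which 18 were lost, and since it was put together after the lost promoters had been seen, its count is no result about these families. The lost members included the glutamate receptor genes Grin1, Grin2a and Grm4, the acetylcholine receptor genes Chrm2 and Chrna3, and the potassium channel genes Kcnk12, Kcns2 and Kcnd2. Chrm2, Grm4, Kcns2 and Kcnd2 had no count in any RNA library. Grin1 had 6 and 10 estimated counts in WT and 1 and 0 in ATRXΔRBR, with an adjusted p of 0.105 by edgeR. Of 72 genes of the list tested in RNA, 22.2% were lower and 8.33% higher, against 5.03% and 3.35% of protein-coding genes. For the same reason these shares are no result about the families.

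H3K27me3, measured in separate libraries, was less often present at lost EZH2 peaks in ATRXΔRBR than in WT. Of the lost peaks, 29.4% in replicate 1 and 30.0% in replicate 2 carried an H3K27me3 peak in WT, while 12.1% and 11.3% did so after the deletion. The mean was 29.7% ± 0.489 in WT and 11.7% ± 0.578 in ATRXΔRBR (SD, n = 2), a difference of −18.0 percentage points, and the groups did not overlap. With 2 libraries against 2, the exact two-sided permutation p cannot go below 0.333, the value found here. At retained EZH2 peaks the values were 19.5% and 20.1% in WT and 19.2% and 18.7% in ATRXΔRBR, a difference of −0.826 percentage points. Because lost peaks are weak, the comparison was made within the groups of like strength. In the weakest group H3K27me3 lay at 35.3% and 36.2% of lost peaks in WT and at 15.2% and 14.9% in ATRXΔRBR. At retained peaks of that group the values were 17.2% and 18.3% in WT and 17.6% and 16.9% in ATRXΔRBR. By rising strength, the difference at lost peaks was then −18.0, −16.4, −7.41 and −3.75 percentage points. In the strongest group, with 40 lost peaks, the genotypes were not separated. The values there were 7.5% and 10% in WT and 7.5% and 2.5% in ATRXΔRBR. The WT mean in that group was 8.75% at lost and 28.5% at retained peaks. In the group below it, the WT means were 8.33% and 15.6%, so the higher WT share at lost peaks did not hold among strong peaks.

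Counted peak by peak, 444 lost peaks had H3K27me3 in both WT lists, and in 237 of these, or 53.4%, it was in neither ATRXΔRBR list. The same was true of 140 of 1695 retained peaks with H3K27me3 in both WT lists, or 8.26%. Counted over H3K27me3 peaks in place of EZH2 peaks, the share was 37.7% of all 28672 shared by the WT lists. That set includes those at EZH2 peaks, and a missing H3K27me3 peak in ATRXΔRBR was common in it. No H3K27me3 peak was listed in either WT replicate at 1090 of 1591 lost peaks. The same was true of 7106 of 8958 retained peaks and of 12009 of all 15596 peaks shared by the WT lists. At lost promoters the percentages with H3K27me3 were 50.8% and 52.3% in WT and 16.8% and 17.2% in ATRXΔRBR, and at retained promoters 14.3% and 14.8% against 17.1% and 16.5%. The direction of the fall at lost peaks held when the EZH2 lists were cut to equal length, with the H3K27me3 lists left as deposited. The values were then 12.5% and 13.3% in WT and 6.99% and 5.51% in ATRXΔRBR, and the difference was smaller, at −6.67 percentage points. Its size depended on ATRXΔRBR replicate 1 of EZH2. Without that list, 16.3% and 16.9% of the peaks then lost carried H3K27me3 in WT and 10.7% and 9.94% in ATRXΔRBR, a difference of −6.25 percentage points, and without ATRXΔRBR replicate 2 it was −26.5. With a WT list left out it was −15.4 without replicate 1 and −11.5 without replicate 2.

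ATRX peaks overlapped 27.8% and 17.2% of lost EZH2 peaks in WT and 8.67% and 13.1% in ATRXΔRBR. The WT mean was 22.5% ± 7.56 and the ATRXΔRBR mean 10.9% ± 3.16 (SD, n = 2), and the libraries of the genotypes did not overlap, with an exact permutation p of 0.333, the smallest possible here. Without ATRXΔRBR replicate 1 of EZH2 they did overlap, at 28.2% and 17.7% in WT and 20.6% and 11.6% in ATRXΔRBR, a difference of −6.86 in place of −11.6 percentage points. At retained peaks the values were 30.3% and 17.3% in WT and 31.0% and 17.1% in ATRXΔRBR, with an exact permutation p of 1.0. Of 205 lost EZH2 peaks with ATRX in both WT lists, 54 had it in neither ATRXΔRBR list, or 26.3%, compared with 6.59% of 1168 retained peaks and with 12.8% of all ATRX peaks shared by the WT lists. ATRX was present at lost peaks outside TSSs more often than at those within, with WT means of 28.0% and 8.09%. Most lost EZH2 peaks, 1080 of 1591, had no ATRX peak in either WT list, and so did most retained peaks, 5868 of 8958.

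**Figure D3:**
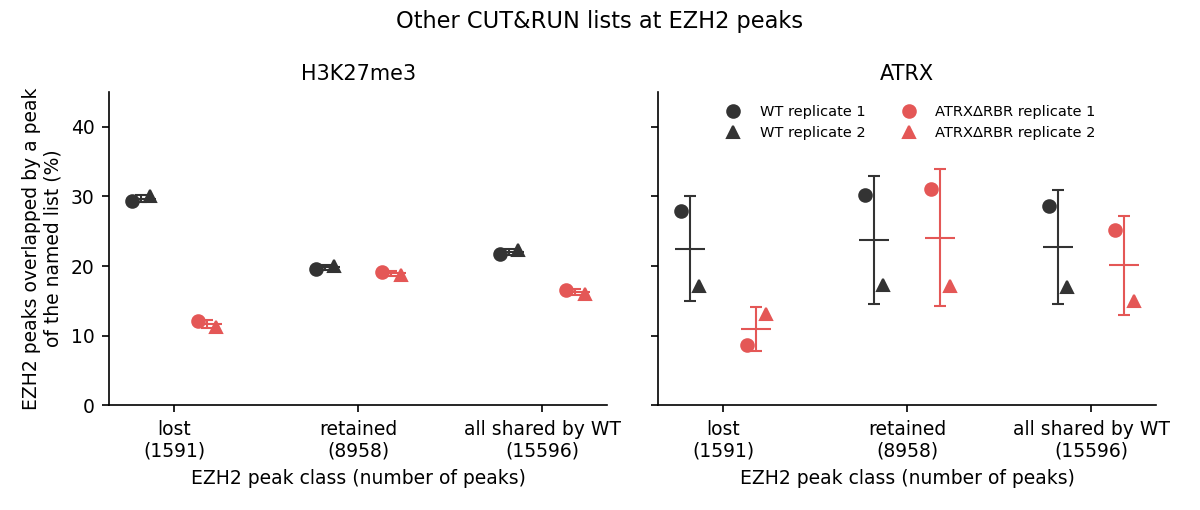
Percentage of EZH2 peaks overlapped by an H3K27me3 peak (left) or an ATRX peak (right) of each library, for lost, retained and all WT-shared EZH2 peaks. Points are libraries, and horizontal marks with bars are the mean ± SD of 2 libraries. At lost peaks H3K27me3 goes from 29.4% and 30.0% in WT to 12.1% and 11.3% in ATRXΔRBR, while at retained peaks all 4 libraries lie between 18.7% and 20.1%.

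RNA at promoters that lost EZH2 was more often lower than higher in ATRXΔRBR. Over all 16287 genes tested, edgeR called 665 lower, or 4.08%, and 455 higher, or 2.79%, at an adjusted p under 0.05, which is 6.88% in either direction. Of the 262 genes with promoter loss, 161 passed the filter of more than 10 estimated counts in total, and of these 33 were lower, or 20.5%, and 2 were higher, or 1.24%. Their median log2 fold change was −0.25, against −0.02 over all genes tested. DESeq2, the method of the study, called 24 of the 161 lower and 3 higher, against 3.90% lower and 3.01% higher over all genes. Of the other 101 genes, 60 had no count in any library. Genes with promoter retention gave 195 lower and 141 higher of 6308 tested, or 3.09% and 2.24%. A gene with counts in WT alone can pass the filter only by being higher there, and 12 of the 161 had no count in either ATRXΔRBR library. With at least 10 counts required in every library, 101 genes remained, of which 8 were lower, and 2.36% of all genes so filtered were lower. In bulk RNA, fewer cells that express a gene and less RNA per cell cannot be told apart.

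The promoters called in lists of equal length gave another picture. Of their 99 losses 85 were tested, with 7 lower and 6 higher. The shares lower were 20.8% with absence required within 1 kb, 18.7% without chromosome 6 and 26.2% when presence was held to a q-value of 0.01, the last a choice made after seeing the data. The share of lower calls also depended on ATRXΔRBR replicate 1 of EZH2. Without that list 2295 promoters were lost and 2086 tested, of which 3.45% were lower and 3.07% higher. Without ATRXΔRBR replicate 2 of EZH2, 114 of 356 were lower, and without WT replicate 1 or 2 it was 17.5% and 18.5%. Low expression went with the losses, as 142 of the 262 genes had a WT mean under 1 TPM, compared with 958 of the 7002 retained. Within levels the difference remained in direction. At 1 to 10 TPM in WT, 15 of 48 lost-promoter genes were lower, or 31.3%, against 7.97% of all genes, and at 10 TPM or more 7 of 72, or 9.72%, against 2.50%.

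Lower RNA was called more often where the promoter had H3K27me3 in WT, at lost and at retained promoters. Of lost promoters with H3K27me3 in both WT lists, 50 genes were tested, with 15 lower and 2 higher. Of retained promoters with H3K27me3 in both WT lists, 489 were tested, with 86 lower, or 17.6%, and 38 higher, or 7.77%. Without H3K27me3 in either WT list, 16 of 102 lost-promoter genes were lower by edgeR, compared with 101 lower and 102 higher of 5720 retained. At an unadjusted p under 0.05 by edgeR, 32 of these 102 genes differed in either direction. At that threshold 998 of the 5720 retained and 3355 of all 16287 tested genes did so.

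**Figure D4:**
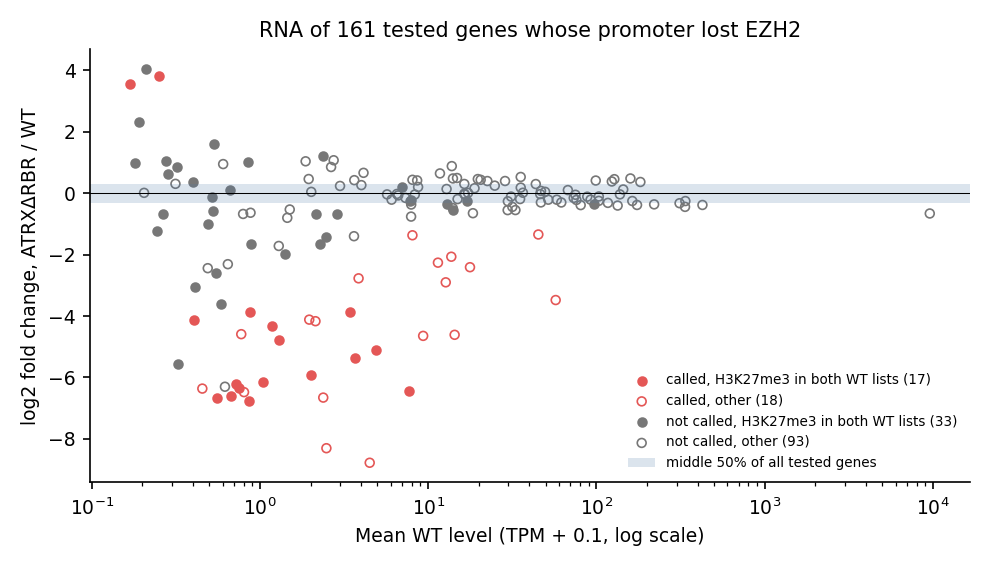
Log2 fold change of RNA in ATRXΔRBR over WT against the mean WT level (TPM + 0.1, log axis) for the 161 tested genes whose promoter lost EZH2. Called genes (adjusted p under 0.05, edgeR) are red, filled symbols have H3K27me3 at the promoter in both WT lists, and the band is the middle 50% of all tested genes. The 33 called lower lie between log2 fold changes of −8.78 and −1.34, and 2 are called higher.

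The genes with the largest RNA falls at lost promoters were near silence in ATRXΔRBR. Trim68, a tripartite-motif ubiquitin ligase gene, had 51 and 62 estimated counts in WT and 0 and 0 in ATRXΔRBR, at least 34.8-fold lower against a floor of 3 counts over the ATRXΔRBR group (adjusted p = 0.002 by edgeR). Ccdc3 had 46 and 36 counts against 0 and 0, at least 25.3-fold lower. Ppp1r9a, the gene of the actin-binding protein neurabin, had 12 and 14 against 0 and 0, at least 8.01-fold lower, and Hspb1, a small heat shock protein gene, had 15 and 11 against 0 and 0, also at least 8.01-fold lower. In all 10 of the called genes had no count in either ATRXΔRBR library.
Lmbr1, Lrrc61, Bnc1 and Begain were likewise at 0 in ATRXΔRBR, with 12 and 13, 14 and 9, 9 and 12, and 11 and 10 counts in WT, or at least 7.71-, 7.09-, 6.47- and 6.47-fold lower. Arfgef3, of the family that activates ARF GTPases, had 69 and 75 counts in WT and 0 and 1 in ATRXΔRBR, a ratio of 133 with a 95% counting interval of 23.5 to 5295. Fhl1, a LIM-domain gene of muscle on chromosome X, had 89 and 120 against 0 and 2, a ratio of 96.6 with an interval of 26.4 to 803. In these genes every WT library was above every ATRXΔRBR library, which follows from their choice as the called genes with the largest changes.

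Some genes with higher counts moved as well, chosen here for their level after values were seen. Adgrl2, the gene of an adhesion receptor of the latrophilin family, was at 52.2 and 62.2 TPM in WT and 6.99 and 5.06 TPM in ATRXΔRBR, a log2 fold change of −3.48 ± 0.26 (SE). Plpp3, whose product dephosphorylates lysophosphatidic acid, went from 11.7 and 13.5 to 2.21 and 1.38 TPM, and Tshz3 from 4.17 and 3.35 to 0.44 and 0.58 TPM. Rspo3, an R-spondin gene that strengthens Wnt signaling, had 113 and 80 counts in WT and 0 and 5 in ATRXΔRBR. The 2 genes called higher were Clic5, a chloride intracellular channel gene with 2 and 3 counts in WT and 28 and 27 in ATRXΔRBR, and Sspo, the SCO-spondin gene, with 0 and 5 against 25 and 45. Both had H3K27me3 at the promoter in both WT lists. Rspo3 and Sspo lost EZH2 in the promoter window only. The peak shared by the WT lists within or near each of these genes overlapped a peak of an ATRXΔRBR list and was not among the consistently lost peaks.

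Lost peaks away from the promoter were accompanied by lower and higher calls in like number. Of 721 protein-coding genes with a lost peak within the gene or 2 kb around it but no promoter loss, 511 were tested, with 33 lower and 30 higher, or 6.46% and 5.87%. Genes with shared peaks and none lost gave 3.85% lower and 2.72% higher of 8943 tested. Where a lost peak lay in a gene whose promoter retained EZH2, 6 of 243 were lower and 12 higher. The median log2 fold changes of the first and last groups were 0.04 and 0.06.

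The RNA of Atrx and of the core PRC2 genes Ezh2, Eed and Suz12 did not pass the test. Ezh2 was at 204 and 177 TPM in WT and 246 and 206 TPM in ATRXΔRBR (log2 fold change 0.28 ± 0.16, SE, adjusted p = 0.39 by edgeR). Eed was at 125 and 118 against 98.6 and 91.2 TPM (−0.27 ± 0.19, adjusted p = 0.48 by edgeR), and Suz12 at 90.2 and 118 against 135 and 99.4 TPM (0.14 ± 0.18, adjusted p = 0.72 by edgeR). Atrx was at 233 and 141 TPM in WT and 175 and 124 TPM in ATRXΔRBR (−0.63 ± 0.22, adjusted p = 0.14 by edgeR). The deletion removes a part of the gene, so a count over the whole gene does not check the genotype.

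At genes the study examined for EZH2, promoter occupancy was mostly retained. Fzd7, a Wnt receptor gene, Ccdc191 and Rnf40, a histone H2B ubiquitin ligase gene, had EZH2 in all 4 lists, while Parp12 had a peak in WT replicate 2 only (−log10 q of 2.32) and Qtrt2 had none at its outermost start. Fzd7 was at 20.3 and 19.9 TPM in WT and 31.3 and 29.0 TPM in ATRXΔRBR, with an adjusted p of 0.13 by edgeR. Parp12 was at 21.4 and 23.9 against 30.6 and 29.4 TPM, with an adjusted p of 0.27 by edgeR. Rnf40 was at 36.9 and 39.1 against 41.9 and 40.0 TPM, with an adjusted p of 0.92 by edgeR. The groups did not overlap in TPM for Fzd7, Parp12 or Rnf40, and none of these changes passed the test.

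Losses were unevenly spread over the chromosomes. On chromosome 6, 134 of 680 shared peaks were lost, or 19.7%, on chromosome 10 138 of 889, or 15.5%, and on chromosome 19 28 of 660, or 4.24%. Chromosome 6 also held 37 of the 262 lost promoters and 9 of the 35 called in RNA. It contributed 4.49% and 4.47% of the peaks in the WT lists and 3.64% and 2.61% in the ATRXΔRBR lists. Of its 821 genes tested in RNA, 8.65% were lower and 3.53% higher, with a median log2 fold change of −0.09. Other chromosomes shifted in RNA as a whole, chromosome 1 by a median of 0.32 and chromosome 15 by 0.28, where 9.92% and 6.74% of EZH2 peaks were lost, and chromosome 9 by −0.23, where 9.57% were lost. Whether the clone differs from WT in chromosome number was not tested. Without chromosome 6, 1457 peaks were lost, and H3K27me3 lay at 29.2% and 29.9% of them in WT and at 12.4% and 11.7% in ATRXΔRBR.

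**Figure D5:**
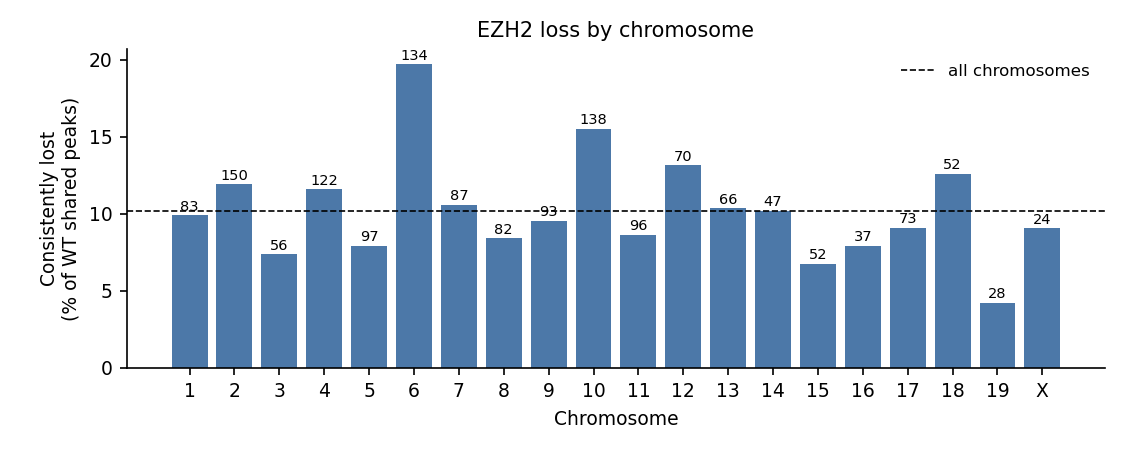
Consistently lost EZH2 peaks as a percentage of the WT-shared peaks on each chromosome, with the number lost above each bar and the value for all chromosomes as a dashed line. Chromosome 6 has the highest share, at 19.7%, and chromosome 19 the lowest of those drawn, at 4.24%.

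The 18 gained peaks were weak and mostly away from promoters. They had a median width of 337 bp, 9 lay between genes, 7 in gene bodies and 2 at a TSS. The strongest by the smaller −log10 q, at 3.09 and 2.63, was 213 bp wide and 139906 bp from the nearest protein-coding start, that of the glycine receptor gene Glra1 (chr11:55748104-55748316). The only one within 2 kb of a protein-coding start lay before Mapkapk3, a gene of a kinase in the p38 pathway (chr9:107290892-107291306), with 3.20 and 2.14. The Mapkapk3 promoter window held EZH2 in all 4 lists, and its RNA was 7.07 and 8.70 TPM in WT and 7.82 and 7.84 TPM in ATRXΔRBR. The widest gained peaks, 2154 and 1293 bp, lay in Crtac1 and near B3galt5, and both had H3K27me3 in all 4 lists. The next widest lay 56815 bp from the start of Ryk, 91237 bp from that of 1700001O22Rik and at the Mapkapk3 site, with widths of 473, 444 and 415 bp. H3K27me3 overlapped 5 and 5 of the 18 in WT and 6 and 5 in ATRXΔRBR.

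The peaks found in ATRXΔRBR replicate 1 and in neither WT list differed in kind from the losses. These 6306 peaks, 6288 of which were also absent from ATRXΔRBR replicate 2, had a mean GC content of 44.4% ± 9.29 (SD over peaks), and 42.3% lay between genes. H3K27me3 overlapped 41.6% and 43.0% of them in WT and 58.5% and 55.9% in ATRXΔRBR, and ATRX 4.73% and 2.32% in WT. Repeats made up more than 50% of the sequence in 11.3% of them, against 1.70% of lost and 0.603% of retained peaks. They rest on 1 library and were not replicated by the other.

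The cells were checked against their label in RNA. Of 10 fibroblast markers 9 were at 10 TPM or more in all 4 libraries, and Thy1 was listed at 0 in all. The summed level of the 10 markers was 13767 and 11448 TPM in WT and 21299 and 23375 TPM in ATRXΔRBR, led by S100a4 and Vim. Among markers of other cell types, Pou5f1, Sox10, Myod1, Myog, Cdh5, Krt18 and Adgre1 were listed at 0 in all 4 libraries, and are named for that value. Others on the same lists were present, such as Cd68 at 4.55 to 10.1 TPM and Pecam1 at 0.93 to 5.22 TPM. Summed levels were 1.41 to 5.38 TPM for 4 endothelial, 7.56 to 12.3 TPM for 4 blood, 0.56 to 0.91 TPM for 4 epithelial, 0.21 to 2.23 TPM for 3 muscle and 0.14 to 0.35 TPM for 2 pluripotency markers. Those of 3 neural markers were 46.3 and 40.0 TPM in WT and 23.2 and 21.7 TPM in ATRXΔRBR, mostly from Sox2. The part of these shifts in the RNA changes at lost promoters was not tested.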

How the data were processed

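Per the methods, the authors mapped CUT&RUN reads to mm10 with Bowtie2 and called broad peaks per library with MACS2 at a cutoff of 0.1. The deposited peak lists give a fold enrichment and a −log10 q-value for each peak, and no read counts, and the study gives depth only as an approximate range, so the depth of each library is not known here. RNA reads were aligned with STAR, and RSEM gave the deposited estimated counts and TPM, with 13320635 and 11856636 estimated counts in WT and 9574174 and 13694802 in ATRXΔRBR. Knockdown and IgG libraries and signal tracks were not used here.

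Peaks were compared by an overlap of 1 bp and placed with GENCODE annotation (pysam 0.24.0, pandas 2.3.3). Promoters were 2 kb on each side of the outermost start. Estimated counts were rounded, genes with more than 10 in total were kept, and edgeR 4.0.16 (R 4.3.3) quasi-likelihood tests with Benjamini-Hochberg adjustment were used at 0.05, with DESeq2 1.42.0 as an alternative. Scripts were tested on simulated data. Percentages over 2 libraries a group were compared by exact two-sided permutation. Intervals cover counting error only.

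The members and lists were chosen with earlier results of these data known. Genes were named by rule: the 10 strongest lost and gained promoter peaks, the 5 widest of each, up to 10 called in RNA among lost promoters, up to 4 affected members a list, genes the study examined for EZH2, and Atrx, Ezh2, Eed and Suz12. Others were chosen after their values were seen. The lists were Hox, developmental transcription factor, PRC2, PRC1, ribosomal protein, histone, Zfp, imprinted, protocadherin, Wnt and Frizzled, chromosome X, senescence and neuronal receptor genes. One member of these lists is not reported here.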

Additional observations from a re-analysis of the deposited data

How the results depend on the processing

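Losses numbered 472 in lists of equal length, 651 with presence at a q-value of 0.01 and absence at 0.1, and 2969 to 5699 with 1 library left out. Gains numbered 29 with 50% overlap, 28 at a q-value of 0.01, 425 at equal length, 4 with the strict presence rule and 62 to 6306 with 1 library left out. Promoter losses numbered 99 at equal length, 102 with strict presence, 424 over all annotated genes and 407 to 2295 with 1 library left out. At a q-value of 0.01 they again numbered 262, but 102 of these were lost under the main rule and 28 were retained under it. Of 152 of them tested in RNA, 39 were lower and 10 higher. Promoter gains numbered 10 with 50% overlap, 10 at a q-value of 0.01, 289 at equal length, 2 over all annotated genes and 2 to 618 with 1 library left out. The H3K27me3 difference at lost peaks was −17.4 points with 50% overlap, −6.67 with EZH2 lists of equal length and −26.5, −15.4, −11.5 and −6.25 with 1 EZH2 list left out. That of ATRX was −19.2 at equal length and −8.98 to −6.86 with 1 EZH2 list left out. Without a filter, 848 genes were higher and 1131 lower in RNA, and with at least 10 counts in every library 282 were lower, 8 of them at lost promoters. With 1 library left out, 460 to 681 genes were higher and 590 to 842 lower, 28 to 37 of them at lost promoters. Lower genes at lost promoters numbered 7 at equal length, 17 with strict presence and 44, 75, 72 and 114 with 1 EZH2 list left out, when more promoters were lost. The cause of these shifts was not tested. The strict presence rule, the chromosome 6 exclusion, the crossed pairing, and RNA, H3K27me3 and ATRX at the peaks of other EZH2 settings were chosen after seeing the data.

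Libraries with the same replicate number share only a number, and their deviations in RNA correlated at −0.37. With the replicate block, 396 genes were higher and 672 lower, 34 of them at lost promoters. Within replicate number 1, 7149 peaks were lost and 7200 gained, with 1183 promoters lost and 884 gained, and within number 2 the values were 7575, 305, 2644 and 66. Required in both numbers, losses were 1565 and gains 18. The crossed replicate block gave 2647 higher and 2900 lower, 67 of them at lost promoters.

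Of 100 alternatives for the 10 genes named for RNA, 13 gave no value because the gene did not pass the filter, among them all 10 with at least 10 counts in every library. Of the other 87, 83 left the call in place, 4 lost it (Bnc1 and Begain, highest adjusted p = 0.064 by DESeq2) and 0 turned the direction. Promoter gain as deposited was 0, so it has no RNA value. The depth of each CUT&RUN library is not given, which limits any reading of a missing peak.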
